A study of Macaca mulatta with 36 samples.

Results

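The adhesion and junction genes described here are the integrin chains, the intercellular adhesion molecules (ICAMs), the selectins, the junctional adhesion molecule (JAM) genes and the claudins. They were matched by gene symbol, a rule that itself reads no measured value, among probe sets that carry exactly 1 symbol. Where several probe sets read a gene, the brightest on average across the arrays stood for it. This gave 50 genes of the 14132 measured, read by 101 probe sets. Measured here means read by a probe set with exactly 1 symbol, as 24956 of the 52707 tested have. Whether the remaining probe sets read further genes was not examined. The symbol rule also takes in 5 proteins that only share the name stem, such as ITGB1BP1, and these are kept apart below. Other genes of these families, among them ITGAL, ITGAX, ITGA4, ITGA5, JAM2, JAM3, ICAM5, CLDN11 and MADCAM1, are not analysed here.

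RNA of the hippocampus from 18 male rhesus macaques was read on 36 Affymetrix arrays, 2 per animal, whose values were averaged. The SIVE group held 9 animals with simian immunodeficiency virus encephalitis, aged 2 to 6 years, and the Control group held 9 uninfected animals aged 3 to 8 years. Treatment with anti-CD8, given to macaques to deplete CD8 T cells, is recorded for 4 SIVE animals, all aged 6 years, and for 2 controls aged 3 and 4 years. The other 5 SIVE animals, aged 2 to 5 years, and 7 controls, aged 3 to 8 years, are labelled as untreated. No group of infected animals without encephalitis is among these samples, so infection and encephalitis cannot be told apart.

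Integrins are pairs of an alpha and a beta chain that bind matrix proteins or receptors on other cells, and most must be activated from inside the cell before they hold firmly. When leukocytes leave the blood, selectins on the vessel wall slow the rolling cell, activated leukocyte integrins then grip ICAMs and VCAM1 on the endothelium, and the cell passes between or through endothelial cells by way of JAMs, PECAM1 and CD99. In the brain this takes place at a vessel wall sealed by tight junctions, in which CLDN5 is the main claudin.

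All values are log2 signals on the deposited scale, so a difference of 1 is a doubling. Differences are SIVE minus Control with the standard error (SE) of the limma model, and a gene was called at a Benjamini-Hochberg adjusted p under 0.05 over all 52707 probe sets tested. Signals of different probe sets are not compared with each other. The median level of all probe sets was 5.65, and for 17 of the 50 members neither group mean reached it. Of 6 neuron markers in the list used 2 were measured, SYT1 and STMN2, and of 6 hippocampal neuron markers 4 were, among them PROX1, and all of these lay above the median level. The animals SIVE 2, SIVE 3 and Control 8 stood apart in the excess of 3′ over 5′ signal, averaged over the control probe sets for GAPDH, ACTB and EEF1A1. It was 0.96 to 1.45 in these 3 animals and 0.10 to 0.47 in the other 15. All 3 are labelled as treated with anti-CD8. Control 8 held the highest or lowest control value for 22 of the 50 members, against 1 to 18 for the other 8 controls, and results are given without these animals where that matters.

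In SIVE 5 of the 50 members were higher than in Control by limma at an adjusted p under 0.05 and none was lower, which is 10% of the members. Over all genes 5.72% were called higher and 1.51% lower. At an unadjusted p under 0.05, 9 members were higher and 8 lower, 34% in all, against 25.6% of all genes. The 5 called members were ICAM2, ICAM3, ICAM4, the integrin chain ITGB4 and the claudin CLDN23. Most of the family differed little: the median member difference was -0.03, beside -0.02 over all genes, and 38 of the 45 members that did not pass differed by under 0.25. In whole tissue, fewer cells of a type and less RNA per cell cannot be told apart, and the same holds for more cells and more RNA.

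**Figure D1:**
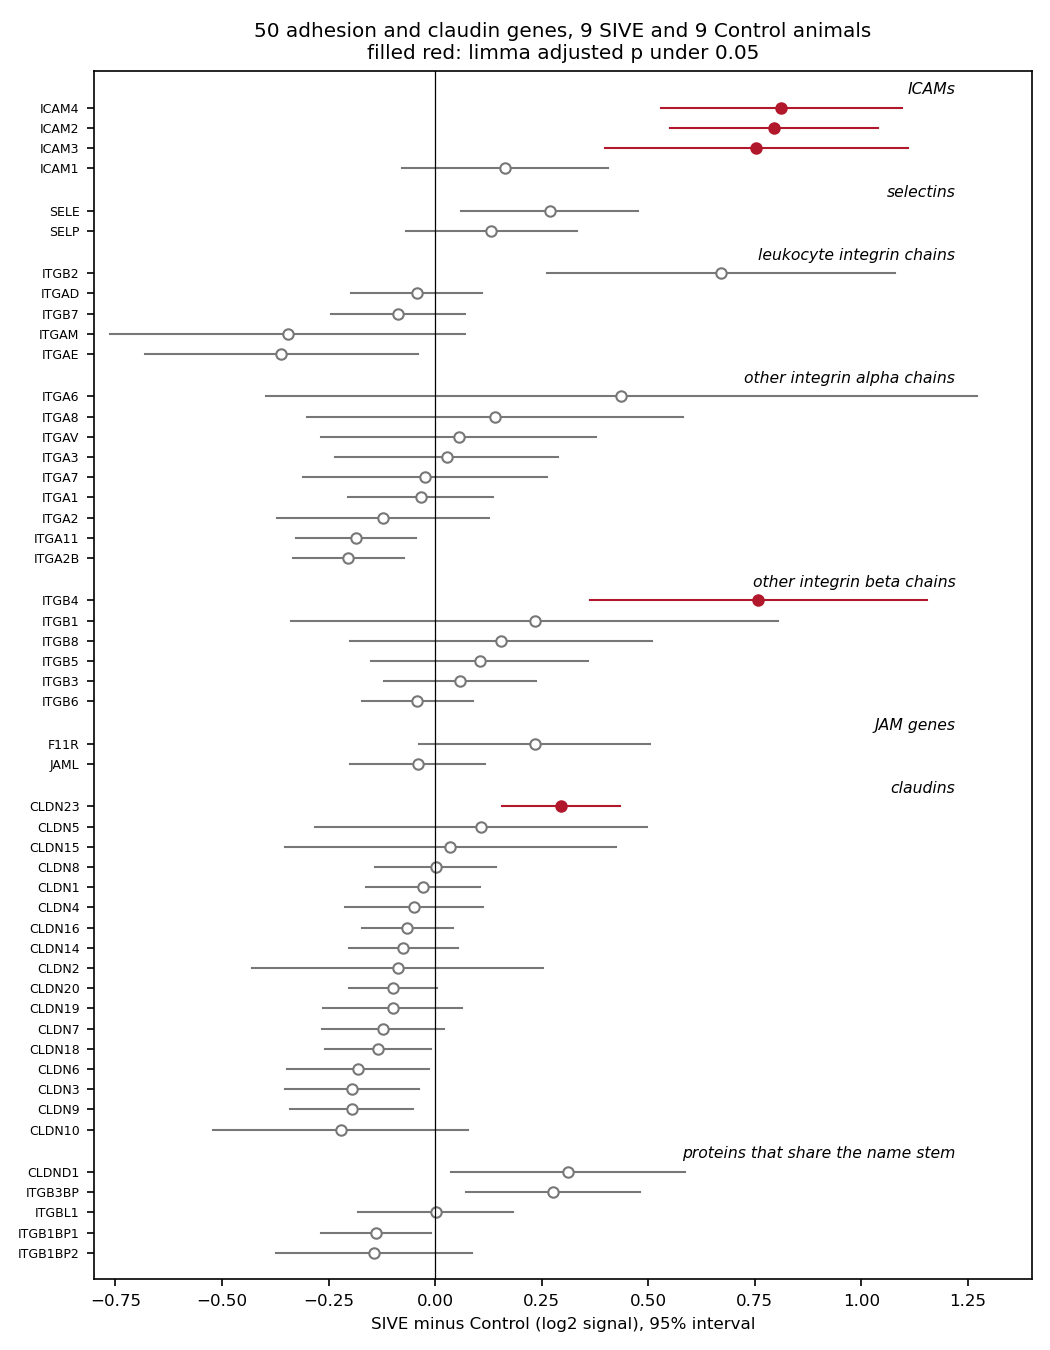
Difference between SIVE and Control (log2 signal, horizontal axis) for each of the 50 members, grouped by role on the vertical axis, with 95% intervals of the limma model and called members filled. ICAM2, ICAM3 and ICAM4 sit between 0.75 and 0.81, ITGB4 at 0.76 and CLDN23 at 0.29, while the other claudins lie between -0.22 and 0.11.

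The ICAMs were the group with the most calls, 3 of 4. ICAMs are immunoglobulin-family surface proteins that serve as ligands of the leukocyte integrins. ICAM2 is carried constitutively by endothelial cells and platelets and by some leukocytes. Its signal in SIVE animals ran from 6.28 through a median of 6.73 to 7.41, and in controls from 5.61 through 5.96 to 6.21. The groups did not overlap: the lowest SIVE animal, SIVE 9, lay above the highest control, Control 8, and SIVE 3 and SIVE 2 were the highest of all. The group means were 6.76 ± 0.33 (SD, n = 9) and 5.96 ± 0.16 (SD, n = 9), a difference of 0.79 ± 0.12 (SE), or 1.73-fold, with a limma adjusted p of 0.000173.

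ICAM4 was first known as the Landsteiner-Wiener blood group protein of red cells and binds several integrins. It measured 6.45, 6.76 and 7.35 (lowest, median, highest) in SIVE and 5.67, 5.96 and 6.62 in controls. SIVE 7 and SIVE 2 were the highest animals, 7 of 9 SIVE animals lay above every control, and Control 5 reached into the SIVE range. The means were 6.84 ± 0.32 (SD, n = 9) against 6.03 ± 0.29 (SD, n = 9), which gives 0.81 ± 0.14 (SE) or 1.76-fold with a limma adjusted p of 0.000692.

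ICAM3 is carried by resting leukocytes and binds the leukocyte integrin LFA-1. Its values were 5.96, 6.29 and 7.49 in SIVE and 5.58, 5.70 and 6.22 in controls. The SIVE animals were spread widely, with SIVE 3 and SIVE 5 highest, and 5 of 9 lay above every control. Control 8 stood at 6.22 and the next control, Control 3, at 5.87. The means of 6.50 ± 0.51 (SD, n = 9) and 5.75 ± 0.20 (SD, n = 9) differed by 0.75 ± 0.17 (SE), 1.69-fold, with a limma adjusted p of 0.0110.

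ICAM1, the ICAM that inflammatory cytokines induce on endothelium and glia, did not pass. It measured 4.47, 4.72 and 5.34 in SIVE and 4.26, 4.62 and 5.07 in controls, below the median level in both groups. The difference was 0.16 ± 0.12 (SE) with a 95% interval of -0.08 to 0.41 and a limma adjusted p of 0.429. Its only probe set is dim here, so the interval describes this probe set and does not show that the transcript was alike in both groups.

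**Figure D2:**
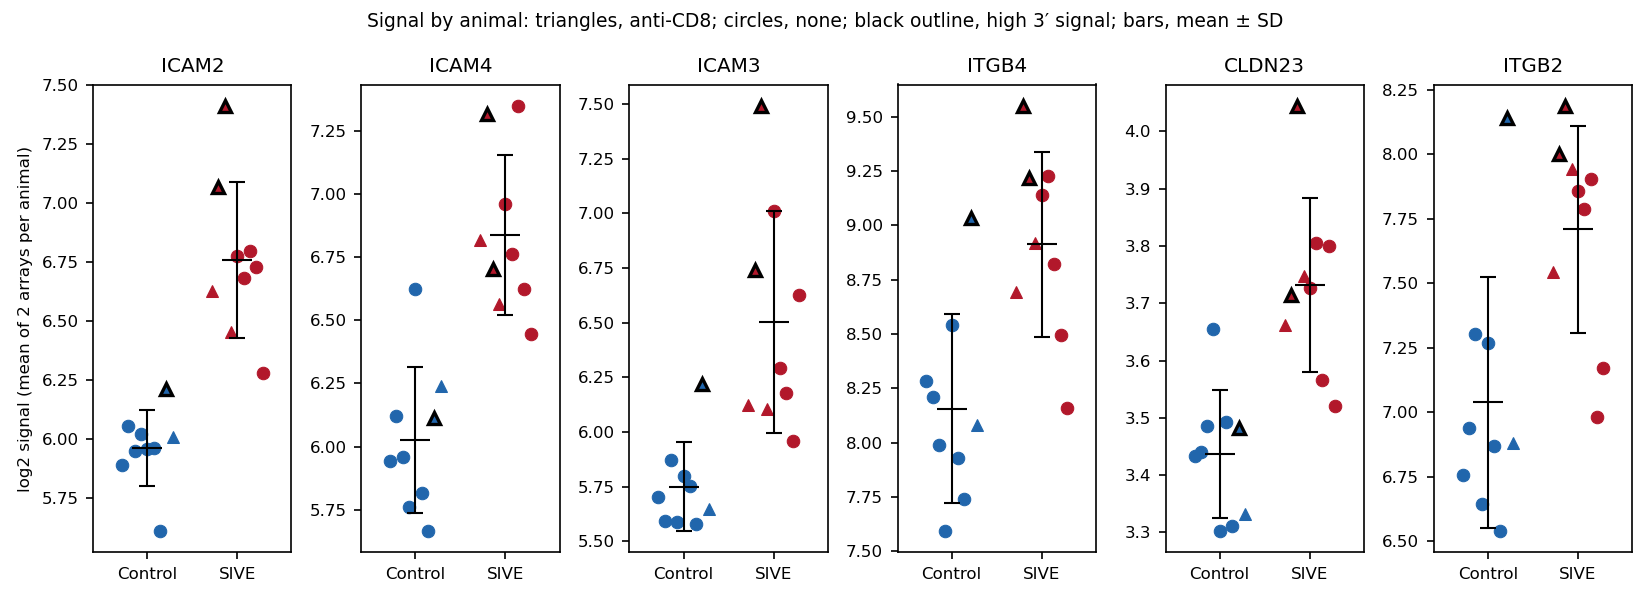
Log2 signal (vertical axis) of each animal in the Control and SIVE groups for the 5 called members and ITGB2, 1 panel per gene with its own axis; points are animals (triangles, anti-CD8; circles, none), bars are group means ± SD, and SIVE 2, SIVE 3 and Control 8 are outlined in black. The groups are separate for ICAM2 and overlap in the others, and Control 8 is the highest control for ICAM2, ICAM3, ITGB4 and ITGB2.

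Neither measured selectin passed, and both were below the median level. E-selectin (SELE) is made by activated endothelium. It measured 3.47, 3.97 and 4.42 in SIVE and 3.38, 3.69 and 3.87 in controls, and 6 of 9 SIVE animals lay above every control. The difference was 0.27 ± 0.10 (SE) with a limma adjusted p of 0.130. P-selectin (SELP) is stored in endothelial and platelet granules, and its difference was 0.13 ± 0.10 (SE) with an adjusted p of 0.444 and a 95% interval of -0.07 to 0.33.

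None of the 5 leukocyte integrin chains was called over all animals. ITGB2 (CD18) is the beta chain shared by LFA-1, Mac-1 and their relatives, which bind the ICAMs. Its values were 6.98, 7.86 and 8.19 in SIVE and 6.54, 6.88 and 8.14 in controls. Control 8, at 8.14, lay above all but 1 of the SIVE animals, and SIVE 8 and SIVE 9 fell among the controls. The means were 7.71 ± 0.40 (SD, n = 9) and 7.04 ± 0.49 (SD, n = 9), and the difference of 0.67 ± 0.19 (SE) just missed the threshold, with a limma adjusted p of 0.0537. Without Control 8 alone it was 0.81 ± 0.16 (SE) with an adjusted p of 0.00319.

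Both measured alpha chains that pair with ITGB2 had differences below 0 that did not pass. ITGAM (CD11b), the alpha chain of Mac-1 on microglia, macrophages and neutrophils, differed by -0.35 ± 0.20 (SE), adjusted p 0.323, with a 95% interval of -0.76 to 0.07. ITGAD (CD11d) differed by -0.04 ± 0.07 (SE). ITGAE, which pairs with ITGB7 on lymphocytes of epithelia, differed by -0.36 ± 0.15 (SE), adjusted p 0.185, and 4 of 9 SIVE animals lay below every control. ITGB7 itself differed by -0.09 ± 0.08 (SE). Thus 4 of these 5 chains had a negative difference, as did 26 of the 45 members not called, and none of the 5 passed the limma test.

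ITGB4 was the 1 called member among 15 other integrin chains. It is the beta chain of the laminin receptor α6β4, known from hemidesmosomes of epithelia and also present on endothelium and glia. It measured 8.16, 8.92 and 9.55 in SIVE and 7.59, 8.08 and 9.03 in controls. SIVE 2 was highest, Control 8 was the highest control, and 4 of 9 SIVE animals lay above every control. The means of 8.91 ± 0.43 (SD, n = 9) and 8.16 ± 0.43 (SD, n = 9) differed by 0.76 ± 0.19 (SE), 1.69-fold, with a limma adjusted p of 0.0225. This call did not hold after a second quantile normalization, where the difference was 0.71 ± 0.21 (SE) with an adjusted p of 0.0571.

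ITGA6 is the only alpha chain known to pair with ITGB4. Over all animals its difference of 0.44 ± 0.40 (SE) did not pass, with a limma adjusted p of 0.553 and a 95% interval of -0.40 to 1.27. The spread came from few animals: SIVE 2 stood at 5.96, Control 8 at 5.99 and SIVE 3 at 6.75, while the other 15 animals lay between 7.44 and 8.98. Without those 3 animals the means were 8.69 ± 0.27 (SD) in 7 SIVE animals and 7.95 ± 0.36 (SD) in 8 controls. The difference was then 0.74 ± 0.15 (SE) with a limma adjusted p of 0.00531, and 6 of the 7 SIVE animals lay above every control. ITGB1, the other beta partner of ITGA6 and the most widely shared beta chain, followed the same animals: SIVE 2 at 5.54, Control 8 at 5.48 and SIVE 3 at 6.05 were its lowest values. Its difference was 0.23 ± 0.27 (SE) over all animals, adjusted p 0.661, and 0.41 ± 0.12 (SE) without those 3, adjusted p 0.0425.

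The other alpha chains lay between -0.20 and 0.14. ITGA2B, the platelet chain of the fibrinogen receptor, was nearest to the threshold with -0.20 ± 0.06 (SE) and a limma adjusted p of 0.0662, and 7 of 9 SIVE animals lay below every control. ITGA11, a collagen receptor chain, followed with -0.19 ± 0.07 (SE) and an adjusted p of 0.120. The collagen receptor chains ITGA1 and ITGA2 differed by -0.03 and -0.12, the laminin receptor chains ITGA3 and ITGA7 by 0.03 and -0.02, ITGA8 by 0.14 and the vitronectin receptor chain ITGAV by 0.06. The beta chains that pair with ITGAV were as near to 0: ITGB3 at 0.06, ITGB5 at 0.10, ITGB6 at -0.04 and ITGB8 at 0.15. None of these chains passed the limma test over all animals. These are values of the brightest probe sets, and others can differ in sign. Of 8 ITGB3 probe sets 3 were positive, and 1 gave -0.20 ± 0.07 (SE) with a limma adjusted p of 0.0882. A second ITGA8 probe set gave -0.22 ± 0.09 (SE) with a limma adjusted p of 0.190. Without SIVE 2, SIVE 3 and Control 8 that probe set gave -0.26 ± 0.08 (SE), adjusted p 0.0492.

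The JAM genes did not pass. F11R (JAM-A), a protein of tight junctions and platelets that can bind LFA-1, differed by 0.23 ± 0.13 (SE), adjusted p 0.309, with a 95% interval of -0.04 to 0.50. That value comes from the brightest of its 4 probe sets. The others gave -0.10 ± 0.14, 0.01 ± 0.10 and -0.08 ± 0.06 (SE), and none was called. JAML, a leukocyte protein that binds a junction receptor, differed by -0.04 ± 0.08 (SE).

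Of 17 claudins 1 was called. Claudins form the strands of tight junctions. CLDN23 measured 3.52, 3.73 and 4.04 in SIVE and 3.30, 3.44 and 3.65 in controls, and 7 of 9 SIVE animals lay above every control, with SIVE 3 highest. Its means of 3.73 ± 0.15 (SD, n = 9) and 3.44 ± 0.11 (SD, n = 9) differed by 0.29 ± 0.07 (SE), 1.23-fold, with a limma adjusted p of 0.0106. Both means lie well below the median level of all probe sets, so this call rests on a dim probe set.

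CLDN5, the main claudin of brain endothelium, measured 7.86, 9.14 and 9.70 in SIVE and 8.51, 8.94 and 9.62 in controls. The groups overlapped nearly throughout, SIVE 9 alone lay below every control, and the difference of 0.11 ± 0.19 (SE) has a 95% interval of -0.28 to 0.50 and a limma adjusted p of 0.780. A difference of this size cannot be resolved with the spread seen. CLDN10, a claudin of paracellular ion channels, differed by -0.22 ± 0.14 (SE), adjusted p 0.383. Altogether 13 of 17 claudins had a negative difference, and their median was -0.09, beside -0.02 over all genes. The share of negative differences over all genes was not computed. In both groups 10 of the 17 claudins were below the median level. The largest negative differences among the rest were CLDN9 with -0.20 ± 0.07 (SE), adjusted p 0.114, CLDN3 with -0.19 ± 0.08 (SE), adjusted p 0.147, and CLDN6 with -0.18 ± 0.08 (SE), adjusted p 0.196.

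The 5 proteins that share only the name stem did not pass. CLDND1 measured 10.71, 10.96 and 11.64 in SIVE and 10.40, 10.70 and 11.16 in controls, a difference of 0.31 ± 0.13 (SE) with a limma adjusted p of 0.182. ITGB3BP, a centromere protein that can also bind the tail of ITGB3, differed by 0.28 ± 0.10 (SE), adjusted p 0.113. ITGB1BP1, which binds the tail of ITGB1, and ITGB1BP2 both differed by -0.14, and ITGBL1 by 0.00.

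More than 1 probe set reads 27 of the 50 members, and the probe sets of a gene did not always give the same answer. In 15 of the 27 all probe sets had differences of 1 sign, and in 6 some probe sets were called and others not. Over the 101 probe sets, 10 were called higher and 1 lower, in 8 members, beside 3.63% higher and 1.3% lower over all probe sets. The 3 genes added to the 5 by probe sets other than the brightest are ITGA6, CLDN1 and CLDN9.

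For ICAM4 a second probe set (MmugDNA.21955.1.S1_at) gave a larger difference, 1.19 ± 0.19 (SE) with a limma adjusted p of 0.000349, and there the SIVE animals, from 6.38 up, and the controls, up to 6.36, did not overlap. The remaining ICAM4 probe set gave -0.06 ± 0.06 (SE), adjusted p 0.618. For ICAM2 the other 2 probe sets gave 0.36 ± 0.10 (SE), adjusted p 0.0414, and 0.22 ± 0.09 (SE), adjusted p 0.193. ICAM4 thus had 2 of 3 probe sets called and ICAM2 also 2 of 3, while ICAM3 has a single one.

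For ITGB4 a second probe set (MmugDNA.24301.1.S1_at) ran from 6.73 to 8.02 in SIVE and from 5.62 to 6.48 in controls without overlap, a difference of 0.98 ± 0.14 (SE) with a limma adjusted p of 0.000173. The other 2 gave 0.22 and 0.27 and were not called. For its partner ITGA6 all 4 probe sets were positive, and the second (MmugDNA.20521.1.S1_at) was called over all 18 animals with 0.68 ± 0.14 (SE) and an adjusted p of 0.00550.

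For ITGB2 the difference of 0.67 comes from the brightest of 4 probe sets. Its other 3 gave 0.10 ± 0.12, -0.04 ± 0.11 and 0.01 ± 0.07 (SE), and their adjusted p values were 0.665 or more. CLDN1 showed the widest disagreement among the claudins. Its brighter probe set gave -0.03 ± 0.06 (SE), adjusted p 0.841, while the other (MmuSTS.3420.1.S1_at) measured 5.20 ± 0.50 (SD, n = 9) in SIVE against 4.46 ± 0.12 (SD, n = 9), a difference of 0.74 ± 0.16 (SE) with an adjusted p of 0.00799 and 8 of 9 SIVE animals above every control. The 3 probe sets of CLDN9 had the same sign, and 1 of them was called lower, with -0.23 ± 0.06 (SE) and an adjusted p of 0.0351. Which parts of a transcript each probe set reads was not examined.

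**Figure D3:**
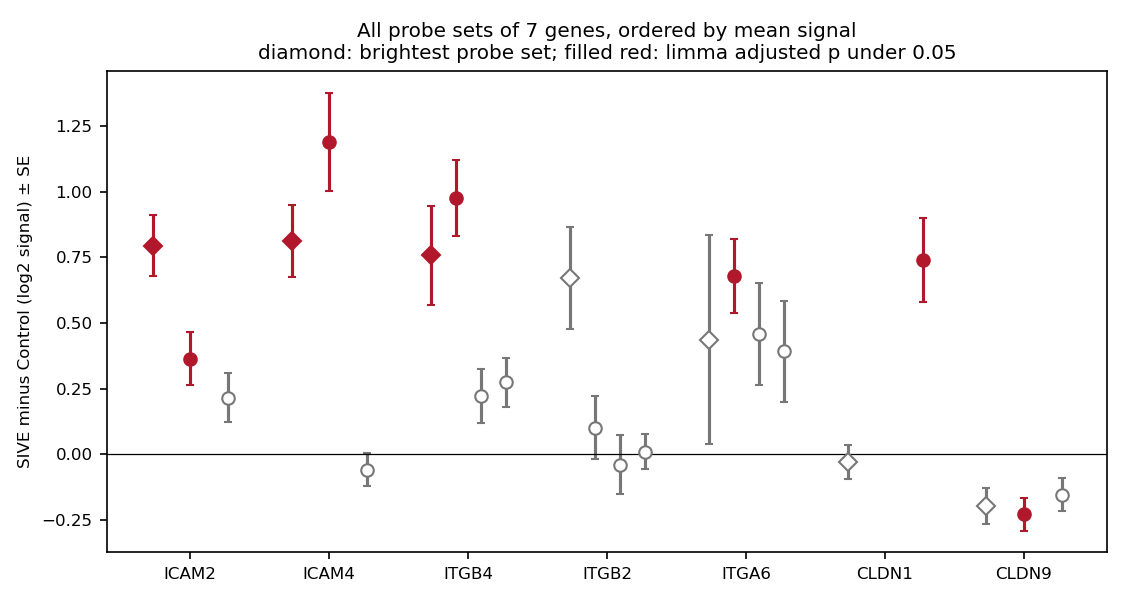
SIVE minus Control (log2 signal, vertical axis) for every probe set of ITGB2 and of the members with several probe sets and at least 1 call; points are probe sets ordered by brightness within a gene (diamond, the brightest), bars are ± 1 SE, and called probe sets are filled red. ICAM4 and ITGB4 each hold 2 called probe sets, while ITGB2 and CLDN1 differ between their probe sets.

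Leaving out SIVE 2, SIVE 3 and Control 8 changed which integrin chains passed. With the remaining 7 SIVE animals and 8 controls, 8 members (16%) were called higher and 3 (6%) lower, against 7.36% and 2.92% of all genes in the same fit. The 5 members called over all animals were among the 8, with ICAM2 at 0.69, ICAM3 at 0.64, ICAM4 at 0.77, ITGB4 at 0.73 and CLDN23 at 0.26. Added were ITGA6, ITGB1 and ITGB2, the last with 0.70 ± 0.15 (SE) and a limma adjusted p of 0.0100. The other 3 probe sets of ITGB2 gave 0.13, -0.04 and 0.01 in this fit, with adjusted p values of 0.485 or more. The members called lower were CLDN9 with -0.23, ITGA11 with -0.20 and ITGA2B with -0.24, with adjusted p values of 0.0114, 0.0372 and 0.0337. For ICAM2 and ICAM3 all 7 SIVE animals then lay above all 8 controls.

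**Figure D4:**
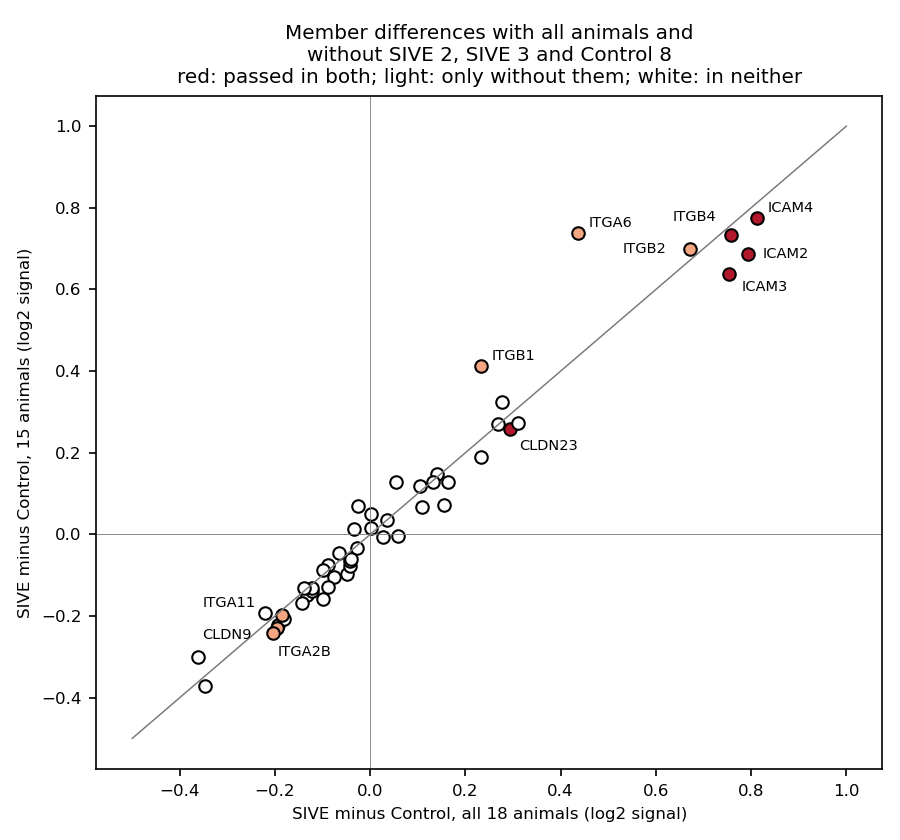
SIVE minus Control (log2 signal) over all 18 animals (horizontal axis) and without SIVE 2, SIVE 3 and Control 8 (vertical axis) for the 50 members, with the line of equal values; red points passed in both fits and light ones only without the 3 animals. The members called in both fits lie near the line, and ITGA6 (0.44 and 0.74) and ITGB1 (0.23 and 0.41) lie above it.

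The anti-CD8 label is uneven between the groups, so the comparison was also made within each label, with 1 mean for each combination and a shared spread. Among untreated animals (5 SIVE, 7 controls) ICAM2 and ICAM4 were called, 4% of the members, beside 3.64% of all genes called higher and 1.13% lower. ICAM2 differed by 0.73 ± 0.14 (SE), limma adjusted p 0.00525, and ICAM4 by 0.85 ± 0.17 (SE), adjusted p 0.00925. Among treated animals (4 SIVE, 2 controls) no member was called by limma, beside 1.51% of all genes, and 12 members (24%) had an unadjusted p under 0.05, against 16% of all genes. ICAM2 came nearest there, with 0.78 ± 0.21 (SE) and an adjusted p of 0.0891.

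The differences of the other called members, first untreated and then treated, were 0.72 and 0.68 for ICAM3, 0.73 and 0.54 for ITGB4 and 0.24 and 0.38 for CLDN23. ICAM4 stood at 0.68 in treated animals, so all 5 were positive under both labels. The 5 were called over these same animals, so the shared sign is no separate support. Control 8 is 1 of the only 2 treated controls. The test of the difference between both effects called no member, and 1 (2%) had an unadjusted p under 0.05, against 1.9% of all genes. That member was SELP, named after its value was seen, with 0.24 in untreated and -0.25 in treated animals, a difference of -0.48 ± 0.16 (SE), unadjusted p 0.00763 and limma adjusted p 1.00. No gene of the 14132 was called in that test (0%).

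Treated and untreated animals of the same group were compared as well, with 0 members called by limma in SIVE, where 0% of genes were called and 7 members (14%) had an unadjusted p under 0.05, against 19% of all genes. In controls 0 members and 0% of genes were called by limma, and 8 members (16%) had an unadjusted p under 0.05, against 15.8% of all genes. SELP was the member with the smallest adjusted p there: the 2 treated controls measured 5.20 and 5.31, the 7 untreated controls 4.62 to 4.92, a difference of 0.49 ± 0.12 (SE) with an adjusted p of 0.294. The largest member differences by treatment were those of ITGA6, -1.47 ± 0.42 (SE) in SIVE and -1.14 ± 0.50 (SE) in controls, neither called by limma. The 3 animals of high 3′ excess, in which ITGA6 was lowest, are all treated. Treatment and 3′ excess therefore cannot be fully told apart for ITGA6. All treated SIVE animals are older than the untreated ones, so treatment and age cannot be told apart in that group.

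The partners of these molecules were read from 6 lists with 108 genes, of which 90 were measured. By limma 15 of them were called higher and none lower, 16.7% of those measured, beside 5.72% and 1.51% of all genes, and their median difference was 0.03. Among 12 endothelial partners of adhesion and passage 5 were higher. VCAM1, the endothelial ligand of the integrin α4β1, had the largest difference of any partner, 2.59 ± 0.18 (SE), from 6.84 in controls to 9.43 in SIVE. The hyaluronan receptor CD44 differed by 1.24 ± 0.11 (SE), and CD99 and PECAM1, both used in passage through the endothelium, by 0.88 ± 0.11 and 0.83 ± 0.18 (SE). The fifth was CDH5, the cadherin of endothelial junctions, with 0.52 ± 0.12 (SE). The remaining 7, from -0.27 to 0.07, did not pass, and the median of the list was 0.07.

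Of 25 integrin activators and adaptors 3 were higher. FERMT3 (kindlin-3), which activates integrins in blood cells, differed by 1.20 ± 0.17 (SE). The kinase SYK, which signals downstream of leukocyte integrins, differed by 0.72 ± 0.19 (SE) and the focal adhesion adaptor PXN by 0.61 ± 0.16 (SE). PARVG, a leukocyte parvin, had a negative difference of -0.54 ± 0.18 (SE) that did not pass, with a limma adjusted p of 0.0975. The 22 members of the list that were not called lay between -0.54 and 0.31.

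Of 20 integrin ligands of matrix and plasma 4 were higher. They were osteopontin (SPP1) with 1.23 ± 0.15 (SE), fibronectin (FN1) with 0.93 ± 0.12 (SE), tenascin-C (TNC) with 0.84 ± 0.13 (SE) and the laminin chain LAMA4 with 0.37 ± 0.09 (SE). Of the 8 tetraspanins and other partners CD63 and CD81 were higher, by 0.54 ± 0.10 and 0.27 ± 0.06 (SE). Among 12 selectin ligands and the enzymes that glycosylate them only B4GALT1 passed, with 0.67 ± 0.12 (SE), while SELPLG, the main P-selectin ligand on leukocytes, gave -0.82 ± 0.26 (SE) with a limma adjusted p of 0.0850.

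None of 13 tight junction partners of claudins and JAMs passed. They lay between -0.31 and 0.12 with a median of -0.05, with OCLN at 0.06, and no test of this list as a whole was made.

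**Figure D5:**
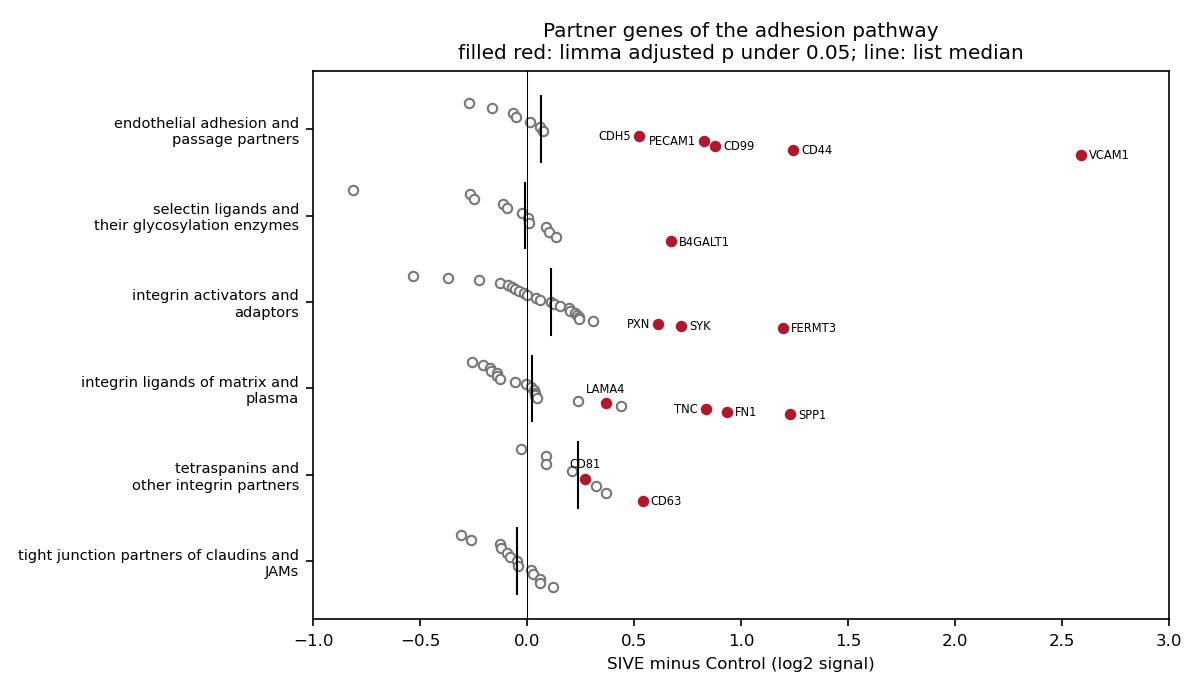
SIVE minus Control (log2 signal, horizontal axis) for the 90 measured partner genes in 6 lists; each point is a gene, called genes are filled and named, and the vertical ticks are list medians. The called partners lie between 0.27 (CD81) and 2.59 (VCAM1), and the tight junction list holds none.

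Markers of the cells that carry these molecules moved as follows. Of 10 measured microglia and macrophage markers 5 were higher, among them PTPRC with 1.52 ± 0.16 (SE), LYZ with 2.71 ± 0.30 (SE) and VSIG4 with 2.39 ± 0.26 (SE). The other 5 did not pass and lay between -0.44 and 0.45, and the median of the list was 0.64. The list mean was 7.02 to 7.92 in SIVE animals and 6.50 to 7.14 in controls. Of 10 endothelial markers 1 was higher, VWF with 0.98 ± 0.24 (SE), and the other 9 lay between -0.33 and 0.27. The median of the list was 0.07, and the list mean was 6.52 to 7.01 in SIVE and 6.47 to 6.99 in controls. SIVE 3 and Control 8 gave these highest values. Without the animals of high 3′ excess the highest were 6.88 in SIVE 5 and 6.72 in Control 2. None of 5 platelet markers passed, with list means of 4.38 to 4.69 in SIVE and 4.48 to 4.86 in controls. None of 4 measured T cell markers (CD5, CD6, CD8A and CD8B) passed, and only 2 of them reached the median level. CD3D, CD3E, CD3G, CD2 and LCK of that list had no probe set with exactly 1 symbol and were not analysed. CD8A and CD8B belong to the cells that anti-CD8 is given to deplete, so the list says little about T cells. Of 6 neutrophil markers 1, MPO, was lower, with -0.24 ± 0.06 (SE). The other 5 neutrophil markers did not pass and lay between -0.16 and 0.96, the highest being S100A8 with 0.96 ± 0.32 (SE) and a limma adjusted p of 0.0918, and the median of the list was 0.00. Of 4 B and plasma cell markers JCHAIN was higher, with 2.81 ± 0.41 (SE). RMA signals have no zero, so no marker could be called absent, and the part of these cells in the differences of the adhesion genes was not tested.

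Across the 9 SIVE animals, the 5 called members and ITGB2 were set against list means and the 3′ excess. The lists were the microglia and macrophage list and the endothelial list. The 18 relations in all were tested by exact two-sided permutation. For ITGB4 and the endothelial mean Pearson's r was 0.83 (exact permutation p 0.00579, 0.0412 after Benjamini-Hochberg adjustment) and Spearman's rho 0.82 (exact permutation p 0.0108, adjusted 0.194). Without SIVE 3 and SIVE 8, the 2 animals farthest from the median endothelial value, r was 0.87. For ITGB2 and the endothelial mean r was 0.81 (exact permutation p 0.00633, adjusted 0.0412) and rho 0.70 (exact permutation p 0.0433, adjusted 0.226), and r was 0.65 without the same 2 animals.

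For ITGB2 and the microglia and macrophage mean r was 0.78 (exact permutation p 0.00687, adjusted 0.0412). Spearman's rho was 0.63 (exact permutation p 0.0760, adjusted 0.274), and r was 0.56 without SIVE 8 and SIVE 4. The other 15 relations had adjusted p values of 0.0890 or more for r, and no rho passed after adjustment. ICAM2 and the 3′ excess gave r = 0.66 over all 9 animals (exact permutation p 0.0528) and -0.67 without SIVE 2 and SIVE 3, so that value rests on those animals. The animals share arrays of 1 platform, and within each anti-CD8 label only 4 or 5 animals remain, too few for a value of r.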

How the data were processed

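Hippocampal RNA of 18 macaques was measured on 36 arrays. The deposited values are log2 signals made with RMA, per the submitters' processing notes; its version and probe definitions are not given in the sources used here. Control and reporter probe sets (158) were left out and 52707 were tested. Gene symbols came from the platform annotation paired with the probe sets, and 49 of the 50 member symbols are current in RefSeq. The 2 arrays of an animal were averaged. Whether they read separate tissue pieces is not given. The median SD between them was 0.15 over the members, and the number of animals and arrays limits the precision. In the main comparison the replicates were the 9 animals of each group.

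Each probe set was fitted by lmFit and eBayes (limma 3.58.1 under R 4.3.3), and two-sided p-values were adjusted by Benjamini and Hochberg's method across the 52707 probe sets, with calls at 0.05. The step was tested on simulated data. Intervals are at 95%. Replicate numbers were not taken as pairs, since the labels state no pairing, and 0 of 9 same-numbered pairs had a correlation of deviations over 0.1. Whether same-numbered animals shared a processing step cannot be told from this measure. Relations, figures and tables used Python 3.11.15, scipy 1.17.1, numpy 2.4.6, pandas 2.3.3 and matplotlib 3.10.9.

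Animal values are given for each called member. Other members named with animal values were chosen after their values were seen. In partner lists up to 4 members with the smallest adjusted p are named, and CDH5 and OCLN were added after seeing values. The symbol rule reads no measured value, but the gene families, the lists and the tests were chosen with earlier results of these data known.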

Additional observations from a re-analysis of the deposited data

Results flagged for a closer look

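Each member was examined in each group of 9 animals for a highest or lowest animal whose gap to the nearest other, divided by the group's range, passed Dixon's 95% critical value for 9 values. Of 100 such tests 12 passed, where about 5 would be expected of normally distributed values. All members were read on the same animals, so the tests are not independent, and an excess over chance was not tested.

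Control 8, 1 of the 3 animals of high 3′ excess, was the animal set apart in 8 of the 12. It was the highest control for ICAM3 at 6.22, ITGB2 at 8.14, CLDN9 at 7.18, ITGA11 at 5.92 and ITGA3 at 6.87. It was the lowest control for ITGA6 at 5.99, ITGB1 at 5.48 and ITGAV at 6.98. The differences of ICAM3, ITGB2, ITGA6 and ITGB1 with and without the 3 animals are given above.

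In the other 4 a different animal stood apart. CLDN2 was highest in SIVE 7 at 6.70, and CLDN5 was lowest in SIVE 9 at 7.86. ITGB3 was highest in Control 9 at 7.02, and ITGBL1 in Control 6 at 4.44. The cause of these values was not tested.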

How the results depend on the processing

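ICAM2, ICAM3 and ICAM4 were called in all 28 alternatives and CLDN23 in the 27 that kept its dim probe set. ITGB4 was called in 26, not with a replicate block (adjusted p 0.0789) nor after quantile normalization (0.0571). The count of members higher was 4 to 8 over settings that keep all replicates or leave out the 3 animals of high 3′ excess (8), and 5 to 7 leaving out 1 animal. Members lower were 3 with the anti-CD8 label as covariate, 3 without those 3 animals and 0 to 1 leaving out 1 animal (ITGA2B, without SIVE 2 or Control 4). Partners lower were 5 with 36 arrays and animal as random block, 5 with the anti-CD8 covariate, 1 with the mean of a gene's probe sets, 2 without the 3 animals and 0 to 1 leaving out 1 animal (without SIVE 2). Partners higher were 10 to 20. The calls over all probe sets moved as well. Of 52707, in either direction, 2595 were called in the main fit, 3574 with 36 arrays and 5294 with the anti-CD8 covariate. They were 3809 without the 3 animals, 2450 after quantile normalization and 1368 with the replicate block. With the mean of probe sets they were 1912 of 41883. For the fits by anti-CD8 label, shares over all genes were not computed in these settings. Members called among untreated animals were 6 with 36 arrays, 4 with the mean of probe sets, 7 without the 3 animals and 2 to 4 leaving out 1 animal (4 without SIVE 8). Among treated animals they were 2 with 36 arrays and 0 to 1 leaving out 1 animal (without SIVE 4), and for anti-CD8 within SIVE 3 with 36 arrays. ITGB2 was called in 8 of 28, among them without SIVE 8, SIVE 9 or Control 8, but not with the mean of its probe sets. ITGA6 was called in 2. CLDN1 changed sign: 0.0085 after quantile normalization, 0.36 with the mean of probe sets, and -0.053 to 0.0050 leaving out 1 animal. With the replicate number as a block, members higher were 4 and members called among untreated animals 0. The labels do not state that these numbers pair the animals. Other causes were not tested. For 17 members, among them ICAM1, SELE and SELP, neither group mean reached the median level of all probe sets, and the background was not estimated here.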

Other observations

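Some members are neighbours in the RefSeq annotation of the macaque genome, and 4 such pairs hold measured genes. ICAM1 and ICAM4 differed by 0.16 and 0.81, CLDN9 and CLDN6 by -0.20 and -0.18, CLDN3 and CLDN4 by -0.19 and -0.05, and CLDN16 and CLDN1 by -0.07 and -0.03 (SIVE minus Control, log2, brightest probe set). For both ICAM1 and ICAM4, SIVE 7 and SIVE 2 were the highest SIVE animals and SIVE 9 the lowest. Control 5 was the highest control and Control 7 the lowest for both. Whether these probe sets also read the neighbouring gene was not tested. Within the SIVE group, SIVE 9 held the lowest value for 23 of the 50 members and the highest for 7. The other 8 SIVE animals held an end value for 2 to 21 members.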
